A study of Capra hircus with 9 samples.

Results

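miR-143 and miR-145 are 2 microRNAs, RNAs of about 20 bases that pair with messenger RNAs through their seed (bases 2 to 8) and lower the output of those messages. The entries described here are all those in the deposited table named miR-143 or miR-145, whatever the arm or ending and with or without the goat prefix chi-. There are 8 of them among 2189 mature miRNA entries, 4 for each number, and all 8 passed the filter on low counts that left 937 entries for testing. Small RNA libraries were made from whole submandibular gland, a salivary gland, of 9 healthy female Lubo goats with no treatment, all kept under the same conditions. There were 3 goats of 1 month, 3 of 12 months and 3 of 24 months, each library from another animal. Libraries are named by the replicate number of their label, which is 1, 2 or 3 for the youngest goats, 3, 4 or 5 for the 12-month goats and 2, 3 or 5 for the oldest. The comparisons ask how the levels of these miRNAs differ between the ages.

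In mammals both miRNAs are cut from 1 primary transcript, and they are best known from smooth muscle, where serum response factor and myocardin switch them on and where they favour the contractile state over the dividing one. They are also found in fibroblasts, pericytes and other cells of mesenchymal origin, and in glands they are therefore read as RNA of the vessel walls and stroma rather than of the secretory epithelium. A hairpin gives a 5p and a 3p strand, of which 1 usually stays with the Argonaute protein and the other is degraded. In the RefSeq gene table of the goat (assembly ARS1.2) the hairpins chi-mir-145 and chi-mir-143 neighbour each other with 0 other listed genes between them, and CSNK1A1 and IL17B lie on the outer sides.

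The listed sequences are shown first because the entries of an arm differ only at their 3′ ends. All are 5′ to 3′, as DNA letters from the deposited table, with the seed in capitals.
chi-miR-143-3p: tGAGATGAagcactgtagctcg
miR-143-y: tGAGATGAagcactgtagctctt
chi-miR-143-5p: gGTGCAGTgctgcatctctgg
miR-143-x: gGTGCAGTgctgcatctctggta
chi-miR-145-5p: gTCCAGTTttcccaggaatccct
miR-145-x: gTCCAGTTttcccaggaaaa
chi-miR-145-3p: aTTCCTGGaaatactgttctt
miR-145-y: aTTCCTGGaaatactgttctaa
The prefix chi- marks goat names, and the endings -x and -y mark entries under names of other species, here the 5p and the 3p arm. The 4 arms thus have 4 seeds, and within an arm the goat-named and the other-named entry share theirs. The other-named entries carry these bases where they part from the goat sequence, now in capitals.
miR-143-y: tgagatgaagcactgtagctcTT
miR-143-x: ggtgcagtgctgcatctctggTA
miR-145-x: gtccagttttcccaggaaAA
miR-145-y: attcctggaaatactgttctAA
Only miR-143-x among the 4 begins with the whole goat-named sequence, all 21 bases of chi-miR-143-5p, and adds 2 more. The other 3 share with the goat-named entry their first 21 bases (miR-143-y), 18 bases (miR-145-x) and 20 bases (miR-145-y) and then end in 2 other bases. Each pair is therefore a pair of forms of 1 arm and not 2 miRNAs, and how the authors shared reads between the forms is not given in the sources used here.

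Libraries held 8288492 to 13277448 counts, so counting error is small for the abundant entries. Levels are given as CPM, counts relative to the library total after scaling by TMM factors, which set the bulk of the miRNAs equal between libraries, with standard deviations over 3 goats. One library stood apart: in 1-month library 2 a leukocyte list (miR-142, miR-150, miR-155, miR-223, miR-146 and miR-342) took 12.7% of counts against 3.73% and 5.78% in 1-month libraries 1 and 3 and 0.477% to 0.712% at the later ages. An epithelial list (miR-200, miR-141, miR-429, miR-203 and miR-205) took 0.797% there, against 5.31% and 3.63% at the same age and 9.74% to 11.2% later. The gland list (miR-148, miR-375, miR-7, miR-216 and miR-217) ran from 1.41% to 8.55% at 1 month and from 14.2% to 17.9% later. Some fold changes of the miR-143 and miR-145 entries against 1 month are given with and without this library. They are those it moves by over 1.5 times, or whose call or sign it changes. The fold changes of all other entries include this library and are not given without it.

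chi-miR-143-3p, the strand that carries most of the function of miR-143, was the third most abundant of the 937 entries by mean level (42996 CPM over all libraries). At 1 month it stood at 47050, 6001.5 and 57562 CPM in libraries 1, 2 and 3. At 12 months it stood at 56252, 33840 and 61856 CPM in libraries 3, 4 and 5, and at 24 months at 43591, 40209 and 40599 CPM in libraries 2, 3 and 5. The low value belongs to 1-month library 2, where this miRNA ranked 27th by count, against a rank between 2 and 7 in the other 8 libraries. Over all libraries the ages overlapped, while all 24-month values lay below those of 1-month libraries 1 and 3. The means were 36871 ± 27250, 50650 ± 14820 and 41466 ± 1850 CPM (SD, n = 3). By edgeR's quasi-likelihood test, with p-values adjusted over all 937 entries, no age contrast passed 0.05: the log2 fold change was 0.46 (SE 0.62, adjusted p = 0.595) for 12 months against 1 month, 0.17 (SE 0.62, adjusted p = 0.872) for 24 months against 1 month and −0.29 (SE 0.62, adjusted p = 0.998) for 24 months against 12 months. Without 1-month library 2 the first pair of values was −0.07 and −0.36 (adjusted p = 0.844 and 0.309), so no direction can be given.

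**Figure D1:**
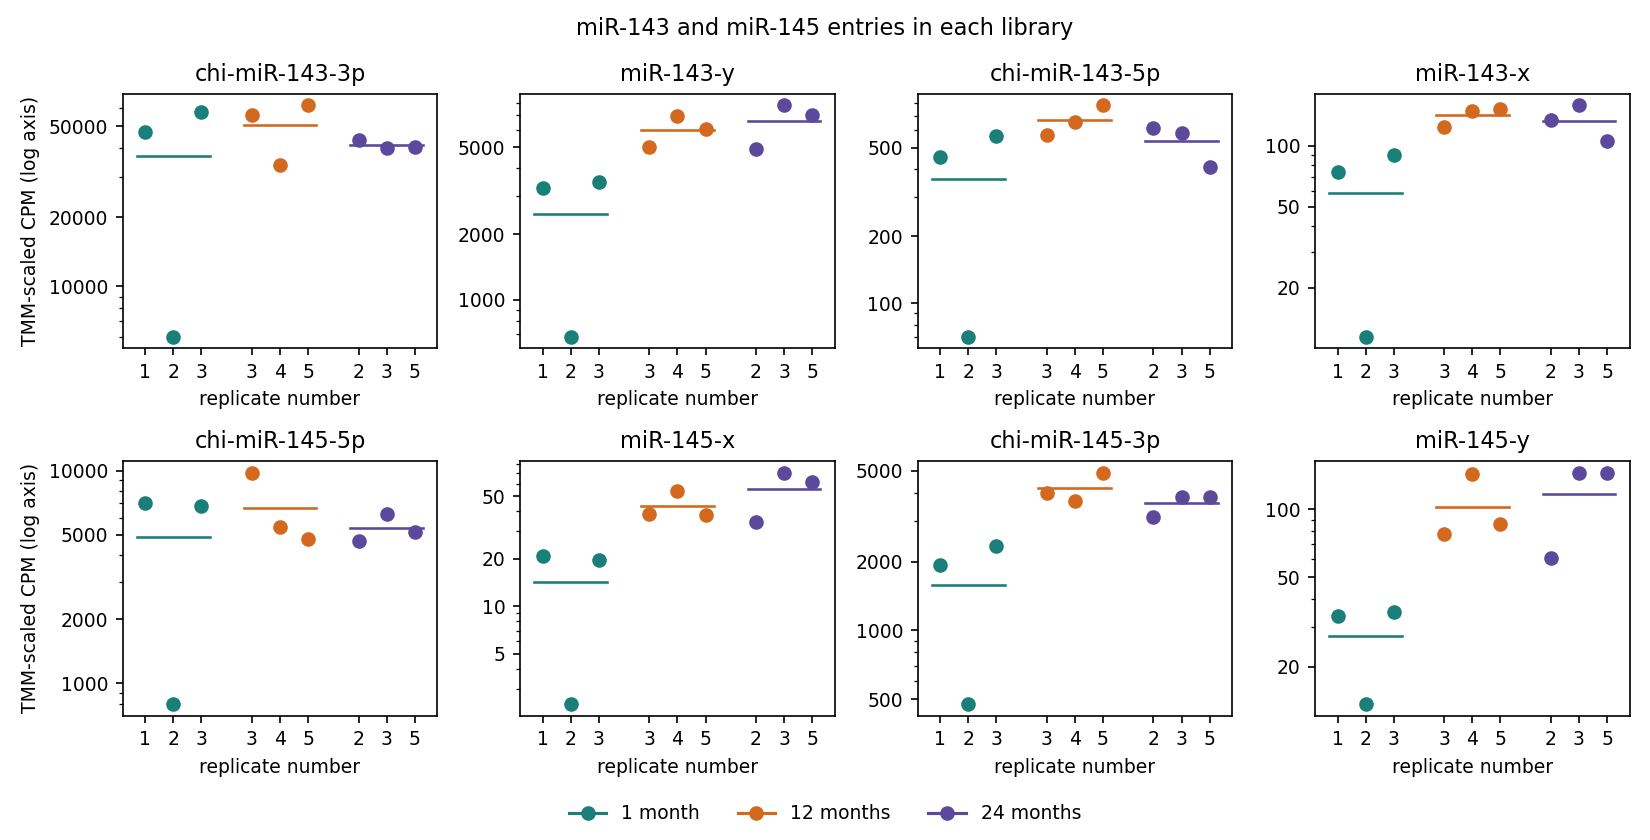
TMM-scaled CPM (log axis) of the 8 miR-143 and miR-145 entries in each of the 9 libraries, 1 point per goat by age and replicate number, with a line at the mean of each age. In all 8 panels the lowest point is 1-month library 2, and in the panels of miR-143-y, miR-143-x, miR-145-x, chi-miR-145-3p and miR-145-y all points of 12 and 24 months lie above all points of 1 month.

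chi-miR-145-5p, the strand through which miR-145 is known to act on regulators such as KLF4 and KLF5, followed chi-miR-143-3p at a lower level. It stood at 7067, 798.1 and 6829 CPM at 1 month (libraries 1, 2 and 3), at 9779, 5401 and 4772 CPM at 12 months (3, 4 and 5) and at 4644, 6268 and 5158 CPM at 24 months (2, 3 and 5). Again 1-month library 2 was the low one. Among the other 8 libraries the 12-month ones overlapped both other ages. All 24-month libraries lay below 1-month libraries 1 and 3. The log2 fold change was 0.44 (SE 0.63, adjusted p = 0.62) for 12 months against 1 month and 0.13 (SE 0.63, adjusted p = 0.913) for 24 months against 1 month, by the same edgeR test. Without 1-month library 2 these became −0.09 and −0.40 (adjusted p = 0.843 and 0.336).

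As shares of all counts the 4 miR-143 entries together took 6.003%, 0.640% and 7.51% at 1 month (libraries 1, 2 and 3), 5.80%, 4.38% and 6.36% at 12 months (3, 4 and 5) and 4.72%, 4.61% and 4.28% at 24 months (2, 3 and 5). The 4 miR-145 entries together took 1.07%, 0.122% and 1.12%, then 1.30%, 0.975% and 0.905%, then 0.757%, 0.976% and 0.817%, in the same order. Wilson 95% intervals for the share of miR-143 and of miR-145 in a library are at most 0.0318 and 0.0154 percentage points wide and cover counting error only. The drop in 1-month library 2 was thus shared by both miRNAs and lies far outside counting error. The exact two-sided permutation test of these shares gave p = 0.9, 0.3 and 1 for miR-143 and 0.6, 0.3 and 1 for miR-145 (12 against 1, 24 against 12 and 24 against 1 month), where 0.1 is the smallest p that 3 against 3 can give. With 1-month library 2 left out, the differences of 12 and 24 months from 1 month were −1.24 and −2.22 percentage points for miR-143 and −0.04 and −0.25 for miR-145. For both miRNAs all 24-month shares lay below those of 1-month libraries 1 and 3. The exact permutation p was then 0.2 at 24 months, the smallest that 2 against 3 can give, so this test could not pass 0.05. At 12 months it was larger. In the whole gland, fewer cells of a type and less of the RNA per cell cannot be told apart.

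Some other lists of stromal or smooth muscle miRNAs were low in the same library, and some were close to the other 1-month libraries. The mesenchymal list (miR-199 and miR-214, known from fibroblasts) took 0.901% of counts in 1-month library 2, against 3.61% and 4.97% in libraries 1 and 3, 1.24% to 1.93% at 12 months and 1.03% to 1.47% at 24 months. Endothelial miR-126 took 0.441% there, against 1.01% and 1.45%, 0.781% to 0.939% and 0.693% to 0.748%. A list tied to the contractile state of smooth muscle, given further on, took 0.140% there, against 0.719% and 0.621% in libraries 1 and 3. The list tied to smooth muscle growth, also given further on, took 14.5%, against 14.1% and 15.3%. The miR-29 entries took 0.161%, against 0.167% and 0.201%. The part of the cell types of these lists in the values of miR-143 and miR-145 was not tested.

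The log2 ratio of all miR-145 counts to all miR-143 counts, which needs no library scaling, lay between −2.81 and −2.16 in the 9 libraries. In 1-month library 2 this log2 ratio was −2.39, within the range of the other libraries, so both miRNAs were low there in like proportion. The log2 ratio of miR-145-y to chi-miR-143-3p was −9.98 ± 1.04, −8.96 ± 0.93 and −8.58 ± 0.79 at 1, 12 and 24 months (SD, n = 3), with exact permutation p-values of 0.3, 0.9 and 0.2 (12 against 1, 24 against 12 and 24 against 1 month). The difference of 1.02 between 12 months and 1 month was 1.62 without 1-month library 2 and 0.48 without 12-month library 4. That ratio concerns a minor form of the 3p arm, taken up further on.

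The 5p arm of miR-143 was the minor strand. chi-miR-143-5p stood at 453.5, 70.5 and 566.8 CPM at 1 month (libraries 1, 2 and 3), at 571.8, 656.1 and 780.2 CPM at 12 months (3, 4 and 5) and at 612.9, 581.8 and 412.1 CPM at 24 months (2, 3 and 5). All 12-month libraries lay above all 1-month ones, with a narrow gap, while 24 months overlapped both. The contrast of 12 months with 1 month had a log2 fold change of 0.88 (SE 0.59, adjusted p = 0.29, edgeR), and that of 24 months 0.56 (SE 0.59, adjusted p = 0.508). Without 1-month library 2 these were 0.36 (adjusted p = 0.324) and 0.04 (adjusted p = 0.909). The 3p arm of miR-143, both forms summed, outnumbered the 5p arm 81.5-fold to 95.3-fold at 1 month, 50.6-fold to 88.1-fold at 12 months and 64.8-fold to 92.0-fold at 24 months. The log2 ratio of the arms was 6.49 ± 0.12, 6.10 ± 0.41 and 6.19 ± 0.29 (SD, n = 3), with an exact permutation p of 0.2 for either later age against 1 month, and the ages overlapped.

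Both arms of miR-145 were abundant, with 0.277 to 1.04 counts of the 3p arm for each of the 5p arm. chi-miR-145-3p, the strand often called the passenger, stood at 1933, 474.6 and 2346 CPM at 1 month (libraries 1, 2 and 3), at 3975, 3667 and 4903 CPM at 12 months (3, 4 and 5) and at 3149.5, 3846 and 3835 CPM at 24 months (2, 3 and 5). Every later library lay above every 1-month library, unlike chi-miR-145-5p. Yet neither contrast with 1 month passed over all libraries (log2 1.40, SE 0.50, adjusted p = 0.0629 at 12 months, and 1.19, SE 0.49, adjusted p = 0.0897 at 24 months, edgeR). Both passed without 1-month library 2, at smaller log2 fold changes of 0.94 (adjusted p = 0.0172) and 0.73 (adjusted p = 0.0363), and the first passed without 1-month library 3 (1.80, adjusted p = 0.0495), by DESeq2 (adjusted p = 0.0347) and by limma voom (adjusted p = 0.0448).

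The arm ratio of miR-145, which needs no library scaling, set only 24 months apart from 1 month. The log2 ratio of 3p to 5p counts was −1.85, −0.71 and −1.52 at 1 month (libraries 1, 2 and 3), −1.28, −0.52 and 0.053 at 12 months (3, 4 and 5) and −0.54, −0.67 and −0.39 at 24 months (2, 3 and 5). All 24-month libraries lay above all 1-month ones, by a small gap to 1-month library 2, and the 12-month libraries overlapped 1 month. The difference in the log2 ratio was 0.83 for 24 months against 1 month (exact two-sided permutation p = 0.1, the smallest possible, adjusted p = 0.45 over the 27 comparisons of shares and ratios), and 0.78 for 12 months against 1 month (exact p = 0.2, adjusted p = 0.45). Neither passed 0.05, which this test cannot do at 3 against 3 even before adjustment. The difference of 24 months from 12 months was 0.046 (exact p = 0.9).

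**Figure D2:**
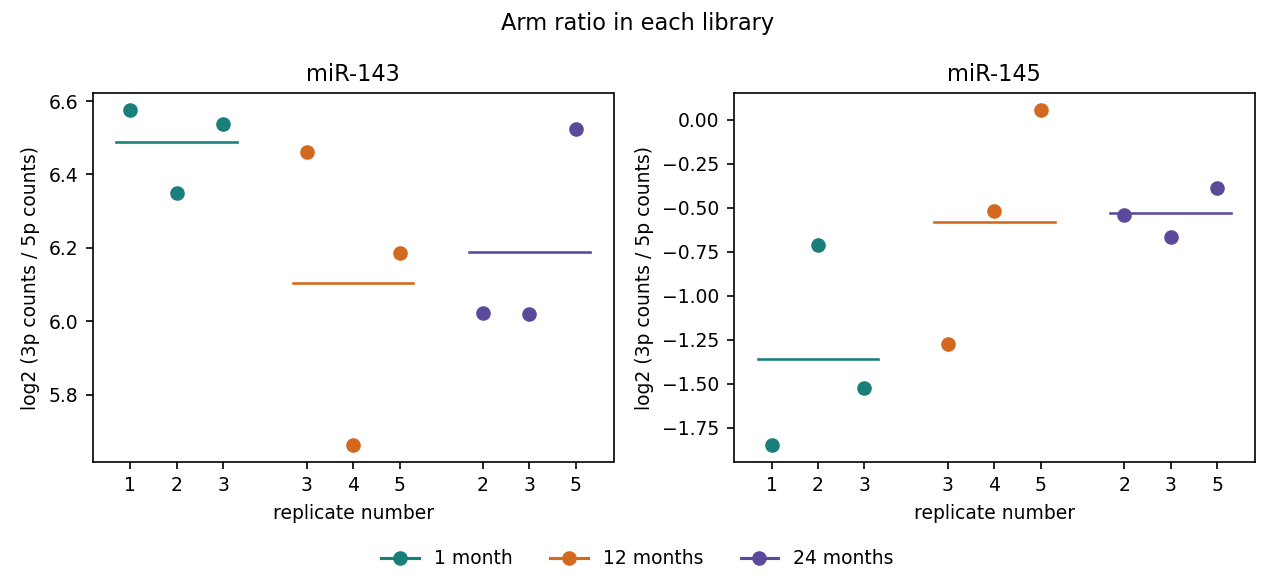
Log2 ratio of 3p to 5p counts, forms of an arm summed, for miR-143 and miR-145 in each library by age and replicate number, with a line at the mean of each age. For miR-145 the 24-month points, from −0.67 to −0.39, lie above the 1-month points, from −1.85 to −0.71, while for miR-143 the ages overlap.

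The forms with another 3′ end stood higher at the later ages, and 1 of them passed the test. miR-145-y rose from 33.4, 13.6 and 34.95 CPM at 1 month (libraries 1, 2 and 3) to 77.9, 143.5 and 86.0 CPM at 12 months (3, 4 and 5) and 60.5, 144.4 and 145.6 CPM at 24 months (2, 3 and 5). No 1-month library reached the lowest later one, and 12-month library 4 and 24-month libraries 3 and 5 were the high ones. The means of 27.3 ± 11.9, 102 ± 35.8 and 117 ± 48.8 CPM (SD, n = 3) gave a log2 fold change of 1.91 (SE 0.51, adjusted p = 0.0256) at 12 months and of 2.10 (SE 0.51, adjusted p = 0.0157) at 24 months against 1 month, in 3 of 3 goats each. edgeR called 19.2% of all 937 entries at 12 months against 1 month and 26.3% at 24 months against 1 month, 5.98% and 8.75% as higher and 13.2% and 17.5% as lower, so 1 of 8 members called in each contrast does not set these miRNAs apart. The higher calls were 31.1% and 33.3% of all calls, but 14.4% and 19.2% with library size alone, where the median of all entries moved to −0.20 and −0.36, and 39.3% and 46.3% with upper quartile factors. Between 12 and 24 months miR-145-y had a log2 fold change of 0.19 (SE 0.49, adjusted p = 0.998).

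Over the 3 ages together edgeR gave miR-145-y an adjusted p of 0.0284 and the other 7 entries one of 0.112 to 0.845, where it called 20.5% of all entries. Without 1 library this p of miR-145-y ran from 0.0329 to 0.11, and it did not pass in 6 of 9 cases.

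Both calls of miR-145-y against 1 month were lost in several settings. The 12-month call did not pass without 12-month library 3, 4 or 5 (adjusted p = 0.0796, 0.0951 and 0.101) or 24-month library 3 or 5 (0.0732 and 0.0742), with library size alone (0.052), or with only the libraries of both ages (0.065). The 24-month call did not pass without 24-month library 3 or 5 (adjusted p = 0.0788 and 0.072). Without 1-month library 2 both stood, at 1.56 and 1.75 (adjusted p = 0.0329 and 0.0201). Summed with chi-miR-145-3p, of which it is a minor form, the 3p arm had log2 fold changes of 1.40 and 1.20 and did not pass (adjusted p = 0.0627 and 0.0886).

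miR-143-y, the next most abundant entry after chi-miR-145-5p, stood at 3237, 678.8 and 3467 CPM at 1 month (libraries 1, 2 and 3), at 4986, 6925 and 6085 CPM at 12 months (3, 4 and 5) and at 4885, 7792.5 and 7035 CPM at 24 months (2, 3 and 5). As with miR-145-y, all later libraries were above all 1-month ones, and chi-miR-143-3p of the same arm showed no such split. The log2 fold changes were 1.29 (SE 0.52, adjusted p = 0.093) and 1.42 (SE 0.52, adjusted p = 0.0618) against 1 month, edgeR. Without 1-month library 2 they passed at 0.81 (adjusted p = 0.0445) and 0.95 (adjusted p = 0.0228), and the second passed by DESeq2 (adjusted p = 0.0278) and limma voom (adjusted p = 0.0438).

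The 2 rarer forms gave like values. miR-145-x had 2.39 to 21.0 CPM in the youngest goats, 38.2 to 53.8 CPM at 12 months and 34.0 to 70.5 CPM in the oldest, with log2 fold changes of 1.60 (SE 0.66, adjusted p = 0.0949) and 1.95 (SE 0.67, adjusted p = 0.0509) against 1 month. The second passed by DESeq2 (adjusted p = 0.0104), by limma voom (0.0358), with DESeq2 size factors (0.0464), with upper quartile factors (0.0417), without a low-count filter (0.0156) and without 1-month library 2 (1.42, adjusted p = 0.0205). miR-143-x ran from 11.5 to 89.8, 123 to 152 and 106 to 159 CPM, with log2 fold changes of 1.28 (SE 0.60, adjusted p = 0.135) and 1.18 (SE 0.60, adjusted p = 0.156). Leaving out 1-month library 2, those of miR-143-x were 0.76 (adjusted p = 0.0691) and 0.67 (adjusted p = 0.0913), and the 12-month value of miR-145-x was 1.07 (adjusted p = 0.0592). In all, 6 of 8 entries at 12 months and 5 of 8 at 24 months lay above 1 month without overlap, where 26.3% and 21.3% of all tested entries did so. The 8 entries come from 1 transcript and the forms of an arm from 1 strand, so they are not independent of each other.

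**Figure D3:**
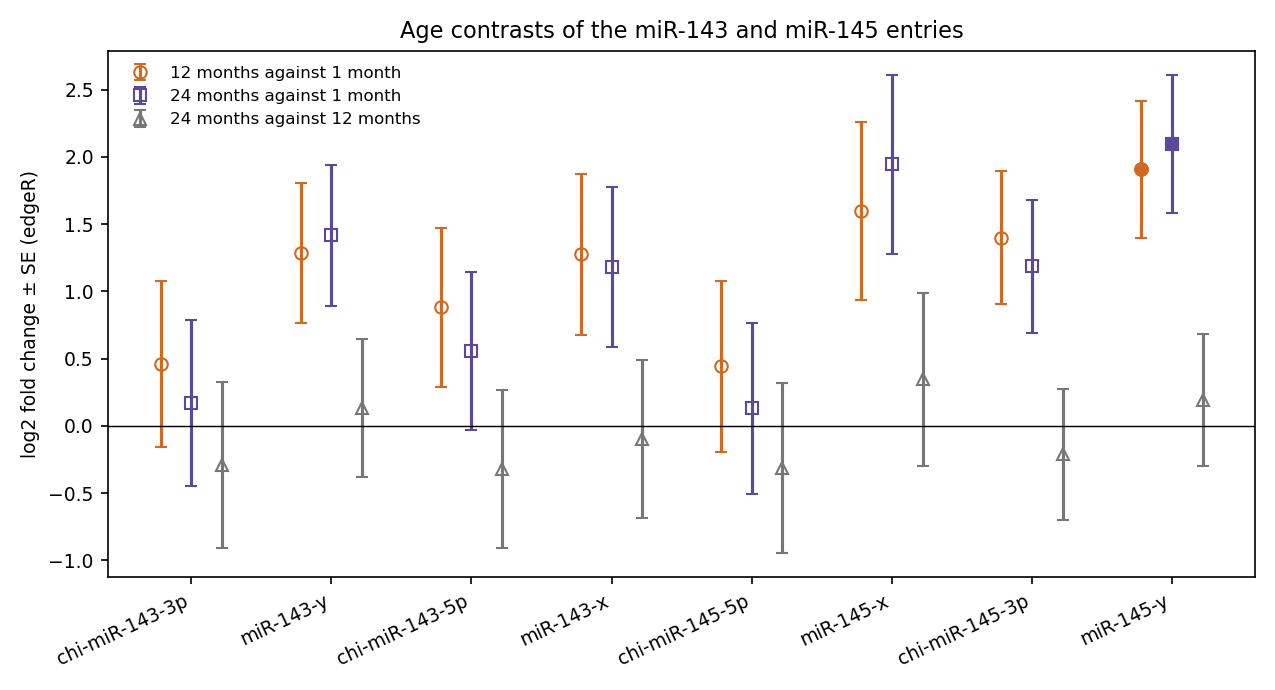
Log2 fold changes with standard errors from edgeR for the 8 entries in the 3 age contrasts, with filled symbols where the adjusted p is under 0.05. Only miR-145-y has filled symbols, at 1.91 and 2.10 against 1 month, and the contrast of 24 with 12 months lies between −0.32 and 0.35 for all 8 entries.

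Between 12 and 24 months no member passed, and edgeR called 0 of 937 entries (0%), with 40 at an unadjusted p under 0.05, while DESeq2 and limma voom also called 0. The log2 fold changes of the 8 entries ran from −0.32 to 0.35 with standard errors of 0.49 to 0.64. A missed threshold at errors of this size does not show that the 2 ages are alike. No member lay above 12 months without overlap at 24 months, against 6.08% of all entries.

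Within an arm the balance of the forms can be read without scaling or abundance. The comparison was chosen after the sequences and counts had been seen. Of the 3p arm of miR-143, miR-143-y made up 6.44%, 10.2% and 5.68% at 1 month (libraries 1, 2 and 3), 8.14%, 17.0% and 8.96% at 12 months (3, 4 and 5) and 10.1%, 16.2% and 14.8% at 24 months (2, 3 and 5). The 3 high libraries were 12-month library 4 and 24-month libraries 3 and 5, and the ages overlapped. Of the 3p arm of miR-145, miR-145-y made up 1.70%, 2.79% and 1.47%, then 1.92%, 3.77% and 1.72%, then 1.89%, 3.62% and 3.66%, in the same order. The same 3 libraries were high, and 1-month library 2 came next in both arms. For these 2 forms the exact permutation p between ages was 0.2 at the smallest.

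The 5p forms set the ages apart more clearly. Of the 5p arm of miR-143, miR-143-x made up 14.0%, 14.0% and 13.7% at 1 month (libraries 1, 2 and 3), 17.7%, 18.5% and 16.3% at 12 months (3, 4 and 5) and 17.9%, 21.4% and 20.4% at 24 months (2, 3 and 5). Here 1-month library 2 did not differ from the other 1-month libraries, although its arm held only 1030 counts (Wilson 95% interval 12.0% to 16.2%). Of the 5p arm of miR-145, miR-145-x made up 0.296%, 0.298% and 0.287%, then 0.391%, 0.986% and 0.793%, then 0.727%, 1.11% and 1.17%. For both 5p forms the 3 highest libraries were 12-month library 4 and 24-month libraries 3 and 5, the same as for the 3p forms. Both 5p forms had a higher share in every later library than in any at 1 month (exact two-sided permutation p = 0.1, the smallest possible, adjusted p = 0.45 over the 27 comparisons). The widest Wilson 95% interval in any library was 4.24 points for miR-143-x, 0.216 for miR-145-x, 0.409 for miR-143-y and 0.825 for miR-145-y.

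The same libraries were high for forms of other miRNAs. In 60 pairs of a goat-named and an other-named entry that share a number and their first 16 or more bases, with at least 1000 summed counts in every library, 12-month library 4 was among the 3 highest shares of the other-named form in 70.0%, 24-month library 3 in 65.0% and 24-month library 5 in 53.3%, where an even spread gives 33.3%. 1-month library 2 was among them in 43.3%, and the remaining 5 libraries in 6.67% to 18.3%. In the 17 of these pairs whose other-named entry ends in AA where it parts from the goat sequence, as miR-145-x and miR-145-y do, the shares for the first 3 libraries were 70.6%, 76.5% and 70.6%. A higher share in every later library than at 1 month was found in 18.3% of the 60 pairs at 12 months and in 26.7% at 24 months, against 2 of 4 pairs of miR-143 and miR-145 in each. Between 12 and 24 months 3.33% of the 60 pairs and 0 of the 4 had such a share. The 60 pairs use 59 goat-named and 54 other-named entries, so a few share an entry. The part of this library-wide balance of forms in the rise of miR-145-y was not tested.

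**Figure D4:**
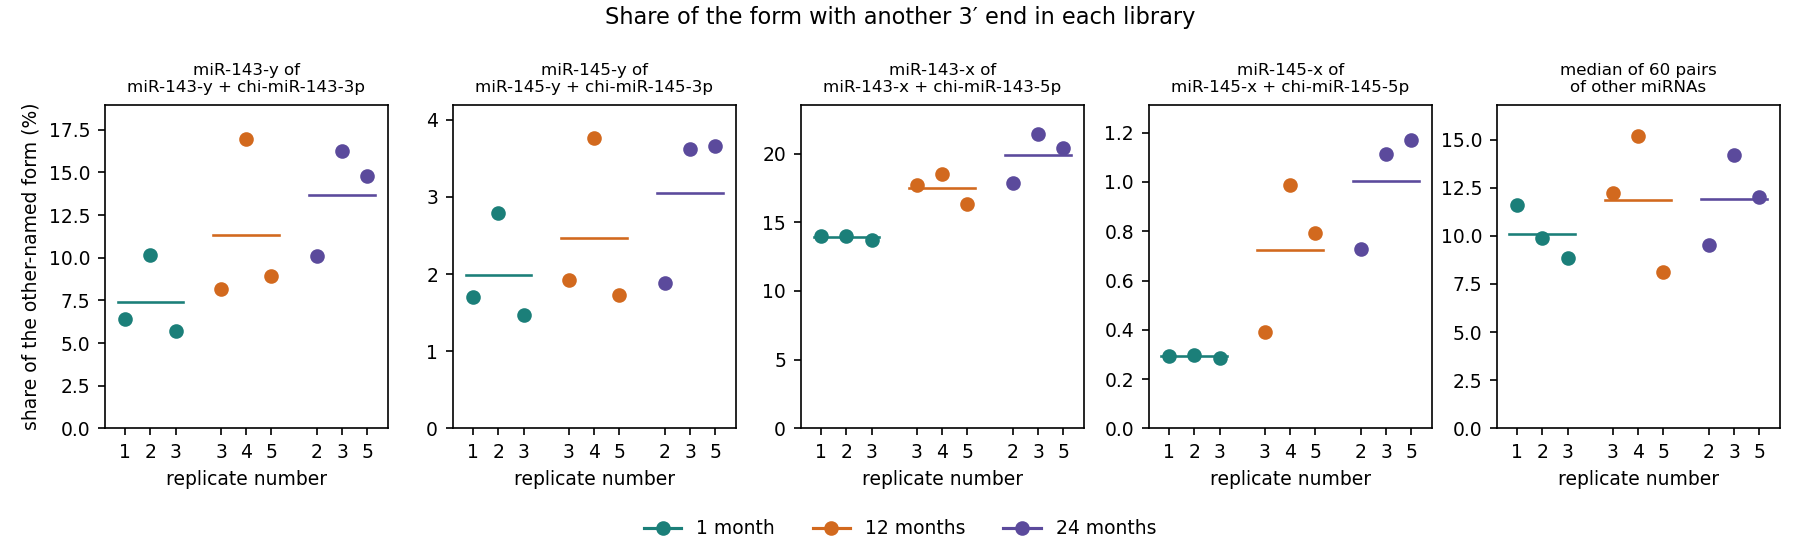
Share (%) of the form with another 3′ end in the sum of both forms of an arm, for the 4 arms of miR-143 and miR-145 and as the median of 60 pairs of other miRNAs, in each library by age and replicate number, with a line at the mean of each age. 12-month library 4 and 24-month libraries 3 and 5 are the 3 highest points in the panels of all 4 arms. The 1-month points of the 5p arms lie close together and below all later ones.

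The levels of the members varied together across libraries mainly through 1 library. The log2 level of chi-miR-143-3p, taken as log2(CPM + 0.5), had a Pearson r of 0.938 with that of chi-miR-145-5p over 9 libraries (exact permutation p = 0.0238, adjusted p = 0.103 over 7 relations) and a Spearman rho of 0.40 (exact p = 0.291, adjusted p = 0.843). Without the 2 libraries farthest from the median of chi-miR-143-3p, 1-month library 2 and 12-month library 5, r was 0.697. With miR-145-y the r of chi-miR-143-3p was 0.577 (exact p = 0.104, adjusted p = 0.104, rho −0.083, exact p = 0.843, adjusted p = 0.843), and without those 2 libraries it was −0.716. Both relations rest on 1-month library 2, without which r was 0.331 and −0.568. On deviations from the age means, which still hold 1-month library 2, r was 0.927 for chi-miR-145-5p and 0.514 for miR-145-y, and the 3 libraries of an age are too few for an r within it.

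Among 445 other known entries with a mean of at least 10 CPM, the one whose pattern over the 9 libraries was most like chi-miR-143-3p was miR-503-x (Pearson r 0.972, and 0.893 without 1-month library 2). The next were chi-miR-424-3p (0.945), chi-miR-493-3p (0.943), miR-450-y (0.940), chi-miR-136-5p (0.939), chi-miR-136-3p (0.936), chi-miR-497-5p (0.930) and chi-miR-30f-5p (0.930). Apart from miR-503-x and chi-miR-493-3p (0.691), these fell to between 0.078 and 0.547 without 1-month library 2, so their likeness lies mostly in being low in that library. These correlations describe 9 libraries and carry no test.

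The entries most like miR-145-y were of another kind. They were miR-148-y (Pearson r 0.980), miR-141-y (0.975), miR-126-x (0.967), miR-151-x (0.957), miR-411-x (0.955), chi-miR-23b-5p (0.9504), chi-miR-29c-5p (0.945) and miR-101-y (0.942), and all 8 stayed between 0.879 and 0.963 without 1-month library 2. Of these 8, 6 bear names of other species, as do 42.9% of the 445 entries compared, while 2 of the 8 most like chi-miR-143-3p do. They include miRNAs of unlike tissues, such as epithelial miR-141 and endothelial miR-126. 2 of them are shown with the goat-named entry of the same arm because they end in the same bases as miR-145-y, with the bases that differ in capitals.
miR-126-x: cattattacttttggtacgcgAA
chi-miR-126-5p: cattattacttttggtacgcgC
miR-151-x: tcgaggagctcacagtctagtAA
chi-miR-151-5p: tcgaggagctcacagtctagt
miR-126-x had a log2 fold change of 1.01 (adjusted p = 0.088) at 12 months and 1.20 (adjusted p = 0.0487) at 24 months against 1 month, edgeR, whereas chi-miR-126-5p stood at 0.24 (adjusted p = 0.631) and 0.0053 (adjusted p = 0.992). miR-151-x did not pass, with 0.64 (adjusted p = 0.18) and 0.81 (adjusted p = 0.09). Such a gap to the goat-named entry was not seen for miR-141-y, which ends in CT. By edgeR miR-141-y had 2.46 (adjusted p = 0.0149) and 2.89 (adjusted p = 0.00772). The goat-named chi-miR-141 had 2.55 (adjusted p = 0.00497) and 2.69 (adjusted p = 0.00367).

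Other miRNAs known to act on the state of smooth muscle are set here beside all 937 entries, of which 19.2% passed at 12 months and 26.3% at 24 months against 1 month. Of 11 tested entries of a list tied to the contractile state (miR-1, miR-133, miR-23b, miR-490, miR-204 and miR-663), 0 were higher and 1 lower at 12 months and 1 higher and 1 lower at 24 months against 1 month, with a median log2 fold change of 0.82 and −0.18 beside −0.017 and −0.065 over all entries. The lower one was miR-204-x at both ages (−1.64, adjusted p = 0.0256, and −1.48, adjusted p = 0.0313), named after its values were seen, and the higher one chi-miR-23b-5p (1.29, adjusted p = 0.0382). chi-miR-23b-3p, the most abundant of the list, had a log2 fold change of 0.72 (adjusted p = 0.299) and 1.06 (adjusted p = 0.128). chi-miR-1, which skeletal muscle shares, stood at 812 CPM in 12-month library 4 and at 37.6 to 227 CPM in the other 8, and the list of skeletal and heart muscle took 0.247% of counts in that library against 0.0155% to 0.0611% elsewhere. chi-miR-143-3p had its lowest level outside 1-month library 2 in 12-month library 4.

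Of 19 tested entries of a list tied to growth and loss of the contractile state of smooth muscle (miR-221, miR-222, miR-21, miR-24, miR-26a, miR-31 and miR-146a), 1 was higher and 0 lower at 12 months, and 2 were higher and 1 lower at 24 months, with medians of −0.26 and −0.41. The entry higher at both ages was miR-24-y (1.10, adjusted p = 0.0446, and 1.14, adjusted p = 0.0342), a form of chi-miR-24-3p with a longer 3′ end, while chi-miR-24-3p stood at 0.70 (adjusted p = 0.191) and 0.42 (adjusted p = 0.423). Named after their values were seen, miR-31-y was higher at 24 months (2.34, adjusted p = 0.0219) and chi-miR-221-3p lower (−1.41, adjusted p = 0.0483). chi-miR-26a-5p, the most abundant entry by the mean over all 9 libraries, had log2 fold changes of 0.050 and −0.011, and chi-miR-21-5p of −0.50 and −0.58, none of which passed (adjusted p = 0.918, 0.984, 0.331 and 0.259).

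Of 11 tested entries of the mesenchymal list 0 passed in either contrast with 1 month, where 19.2% and 26.3% of all entries did, with medians of −0.42 and −0.96. chi-miR-199a-5p, its most abundant member, stood at 10710 ± 5939, 8132 ± 2232 and 6587 ± 1694 CPM (SD, n = 3), with log2 fold changes of −0.40 (adjusted p = 0.529) and −0.70 (adjusted p = 0.266). chi-miR-199a-3p, chi-miR-199b-3p and chi-miR-199c-3p carry the same counts and are 1 measurement (−1.15, adjusted p = 0.149, and −1.40, adjusted p = 0.0798). chi-miR-199a-3p was also low in 1-month library 2. It stood at 5527, 1276 and 6881 CPM in 1-month libraries 1, 2 and 3, and at 1071 to 2595 CPM later. The fold changes of the mesenchymal list include that library and are not given without it. With that library included, chi-miR-143-3p had positive values of 0.46 and 0.17, which turned negative without it. Whether chi-miR-143-3p differs from the mesenchymal list was not tested. Of the 4 endothelial entries 0 passed at 12 months and 1, miR-126-x, was higher at 24 months. Of 7 tested entries of the matrix list, all of miR-29, which is known to act on collagen messages, 5 were higher at both ages (chi-miR-29a-3p, chi-miR-29b-3p, chi-miR-29b-5p, chi-miR-29c-5p and miR-29-y, with medians of the list of 1.88 and 2.58). These miR-29 entries together took 0.161% to 0.201% of counts at 1 month and 0.550% to 0.671% later, and red cell miRNAs took 0.201% to 0.403% in the youngest goats, 0.0735% to 0.360% at 12 months and 0.101% to 0.116% in the oldest.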

How the data were processed

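The authors deposited unscaled read counts per mature miRNA entry with the listed sequence, per the file headers. Libraries were made from TRIzol RNA with Illumina small RNA protocols, per the labels' protocols. FastQC and Bowtie are named without role or version, per the submitters' processing notes, and no build or miRNA database is given in the sources used. All 9 libraries were fitted in edgeR 4.0.16 (R 4.3.3) with filterByExpr (minimum count 10, minimum total 15), TMM factors (0.888 to 1.22), and the robust quasi-likelihood test with 6 residual degrees of freedom. Standard errors are the log2 fold change over the root of F. Benjamini-Hochberg adjustment ran over the 937 tested entries (threshold 0.05). DESeq2 1.42.0, limma voom 3.58.1, other scalings, no filter, a block on the replicate number, sums per arm and leaving out each library were alternatives. Shares and ratios were tested by exact permutation (scipy 1.17.1). The fit was tested on simulated data. Nothing states whether libraries were processed in batches. Named entries are the 8 members, abundant members of 10 lists, and the 8 entries most like chi-miR-143-3p and miR-145-y. The members and lists were chosen with earlier results of these data known.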

Additional observations from a re-analysis of the deposited data

How the results depend on the processing

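The 8 entries in 3 contrasts kept direction and side of the threshold in 393 of 456 recomputed values, lost a call in 13, gained one in 15 and changed sign in 35, the last all in values that did not pass. The cause of these changes was not tested. Library size alone gave 1.68 (adjusted p = 0.052) for miR-145-y at 12 months against 1 month, and −0.18 and −0.22 for chi-miR-143-3p and chi-miR-145-5p at 24 months against 1 month, where the median of all entries moved from −0.065 to −0.36. Without a low-count filter those 2 stood at −0.09 and −0.12, and 5 entries were called between 12 and 24 months. Leaving leukocyte and miR-181 entries out of the scaling gave −0.04 and −0.08. With the third age left out of the fit, miR-145-y stood at 1.58 at 12 months. DESeq2 called 285 entries at 12 months against 1 month, where edgeR called 180, with 56 higher and 124 lower, against 115 and 170 by DESeq2, 98 and 130 by limma voom, and 21 and 134 with only the libraries of both ages.

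With sums per arm the 3p arm of miR-145 stood at 1.40, 1.20 and −0.20 (12 against 1, 24 against 1 and 24 against 12 months), and between 12 and 24 months the 3p arm of miR-143 at −0.24 and the 5p arm of miR-145 at −0.31. All miR-145 over all miR-143 gave log2 differences of 0.16, 0.12 and −0.04 in the same order, against 1.02, 1.40 and 0.38 for miR-145-y over chi-miR-143-3p.

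The ages share replicate numbers between different goats, number 3 in all 3 contrasts, number 2 also between 1 and 24 months and number 5 between 12 and 24 months. Same-numbered libraries did not deviate together (correlations of deviations from −0.198 to 0.15), so the number is no pairing. A replicate block left 2 residual degrees of freedom, 4 and 71 calls at 12 and 24 months against 1 month (180 and 246 without it), and miR-145-y at 1.23 (adjusted p = 0.392) and 2.08 (adjusted p = 0.0674). Between 12 and 24 months it gave 0.14, 0.09 and 0.30 for chi-miR-145-5p, chi-miR-145-3p and miR-143-x.

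Leaving out each library in turn, chi-miR-143-3p ran from −0.16 to 0.93 (12 against 1 month), −0.36 to 0.65 (24 against 1) and −0.50 to 0.12 (24 against 12). In the same order chi-miR-145-5p ran from −0.32 to 0.77, −0.40 to 0.46 and −0.44 to 0.24, and miR-145-y from 1.52 to 2.13, 1.70 to 2.33 and 0.18 to 0.69. Between 12 and 24 months chi-miR-143-5p ran from −0.33 to 0.05, chi-miR-145-3p from −0.29 to 0.16 and miR-143-x from −0.09 to 0.22. Calls ran from 83 (without 12-month 4) to 218 at 12 months and, at 24 months against 1 month, from 116 to 255 (158, 116 and 161 without 24-month 2, 3 or 5), and from 0 to 2 (without 12-month 5) between 12 and 24 months. The difference in the miR-143 share ran from −1.24 to 2.19 and from −2.22 to 1.21 points against 1 month, and that of miR-145 from −0.04 to 0.46 and from −0.25 to 0.25. Between 12 and 24 months the log2 arm ratio of miR-143 ran from −0.14 to 0.26 and that of miR-145 from −0.30 to 0.36. The share of miR-145-y in its arm ran from −0.16 to 0.89 points at 12 months against 1 month. The correlation of chi-miR-143-3p with miR-145-y ran from −0.57 to 0.69, and was −0.72 without the 2 farthest libraries. The last 2 leave-out series were chosen after seeing the data. Depth limits mainly miR-143-x, miR-145-x and miR-145-y in 1-month 2, with 144, 30 and 171 counts.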

Other observations

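Under other names, 4 entries carry a seed or a run of 16 bases of these miRNAs and were left out of the sums. miR-4770-y, with the seed of chi-miR-143-3p, held 105 counts in all, 0 to 25 per library. miR-1711-x, which shares seed and bases with chi-miR-143-5p, held 6, 3 and 4 counts in 12-month library 4 and 24-month libraries 3 and 5 and 0 in the other 6. Those are the libraries with the highest shares of the other-named form in every arm of miR-143 and miR-145, and at these counts no comparison was made. miR-4328-y, which shares 16 bases with chi-miR-145-5p, held 2 counts. A candidate entry with no known name and the seed of chi-miR-145-5p held 20 counts, 12 of them in 1-month library 2.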
